A study of Mus musculus with 8 samples.

Results

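Etv2-expressing haematoendothelial progenitors are cells in which the ETS factor Etv2 was detected together with genes of the early blood and endothelial programme. The cells were chosen by measured UMI counts (unique molecular identifiers, each 1 counted mRNA molecule). A cell was counted as a progenitor if it held at least 1 UMI of Etv2 and at least 1 UMI in 2 or more of the 5 companion genes Tal1, Kdr, Lmo2, Fli1 and Rhoj. In all, 3361 of 49838 cells that passed quality control in the 8 libraries met this rule, 377 WT host and 324 Tet-TKO cells at E7.5 and 1108 WT host and 1552 Tet-TKO cells at E8.5, groups that are described below. A further 5442 cells had 2 or more companion genes without an Etv2 UMI and served as comparison cells. Most of those in E8.5 WT host were rich in globin UMIs, as given below, so they differ from progenitors in more than Etv2.

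Etv2 is a transcription factor that is switched on for a short window in mesoderm that gives rise to both the first blood cells and the endothelium. In this window KDR, the receptor for VEGF-A, is present at the cell surface, and TAL1, LMO2 and FLI1 act downstream of or together with ETV2 to start the blood and vessel programmes. RHOJ is a small GTPase of endothelial cells. Etv2 is normally switched off again as cells commit to one of these fates, and primitive erythrocytes that carry embryonic globins arise in the yolk sac from such progenitors.

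The cells came from chimaeric mouse embryos made to ask which lineages need the TET dioxygenases, enzymes that oxidise methylated cytosine. Embryonic stem cells lacking Tet1, Tet2 and Tet3 (Tet-TKO), of a mixed C57BL/6J-129Sv background and carrying a tdTomato reporter, had been injected into C57BL/6J host blastocysts without these deletions (WT host). Embryos were pooled, dissociated and sorted into tdTomato+ Tet-TKO cells and tdTomato- WT host cells, so knockout and host cells shared an embryo environment. There were 1 library of each genotype at E7.5, 2 WT host libraries at E8.5 and 4 Tet-TKO libraries at E8.5. Strain background, reporter and passage through stem cell culture went with genotype in every library and cannot be told apart from it. The labels name no embryo for any library, so p-values measure the spread between libraries, which may be partly technical. They also do not say whether the 4 Tet-TKO libraries of E8.5 came from separate pools of embryos, or which of them shared a pool with which WT host library.

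Libraries held between 65601218 and 136982886 UMIs in all, and the median progenitor held between 15726 and 90918.5 UMIs. Tet-TKO libraries 3 and 4 of E8.5 were the deepest per cell and the smallest, with 184 and 88 progenitors. In the sums over progenitors, the counts of Tet-TKO libraries 1 and 2 differed by a chi-square of 3.43 per degree of freedom and those of libraries 3 and 4 by 5.08. Pairs across these sets differed by 22.4 to 26.96, and the WT host libraries differed by 5.08. The 28 pairs of libraries shared 362 cell barcodes in total. tdTomato was measured at 68.9 to 159 CPM (counts scaled to a fixed library total of 1e6) in Tet-TKO progenitors and at 0.473 to 0.825 CPM in WT host progenitors, and 73.1% to 93.2% against 0.8% to 1.33% of progenitors held a tdTomato UMI. The knocked-out genes gave no such check. Tet1 was at 16.2 and 13.6 CPM in WT host progenitors of E8.5 and at 6.72, 5.39, 11.6 and 12.3 CPM in Tet-TKO, with a log2 fold change of -0.81. Tet2 was at 6.10 and 5.32 CPM in WT host against 6.90, 5.68, 11.7 and 10.3 CPM in Tet-TKO, and Tet3 at 29.3 and 26.97 CPM against 28.2, 29.8, 40.2 and 34.0 CPM. None of the 3 passed the genotype test given below. Counts at the 3′ end of a transcript need not cover the deleted part of a gene.

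The genes that chose the cells are given as a description, since the rule used them. Etv2 was at 256 CPM in E7.5 WT host progenitors and 276 CPM in E7.5 Tet-TKO progenitors. At E8.5 it was at 421 and 374 CPM in WT host and at 299, 329, 198 and 167 CPM in Tet-TKO. Tal1, the basic helix-loop-helix factor of the first blood cells, was at 128 CPM in E7.5 WT host and 55.4 CPM in E7.5 Tet-TKO. At E8.5 Tal1 was at 97.0 and 110 CPM in WT host and between 57.1 and 64.3 CPM in the 4 Tet-TKO libraries. Lmo2, an adaptor of TAL1 complexes, followed the same order, with 365 against 196 CPM at E7.5 and 263 and 292 CPM against 131 to 228 CPM at E8.5. Kdr did not, with 134 against 149 CPM at E7.5 and 211 and 230 CPM against 213 to 281 CPM at E8.5. Among progenitors, Tal1 was detected in 80.9% of cells in E7.5 WT host and in 46.0% in E7.5 Tet-TKO, while Kdr was detected in 67.4% and 90.7% of the same cells. Tal1 and Lmo2 were detected in more of the E7.5 WT host progenitors and Kdr in more of the E7.5 Tet-TKO progenitors. Fli1 was at 53.6 to 93.6 CPM and Rhoj at 31.7 to 75.3 CPM over the E8.5 libraries, and the genotypes overlapped at E8.5 for Rhoj and for Fli1.

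Many progenitors lay at the edge of the rule. Between 31.0% and 43.2% of progenitors held a single Etv2 UMI, and 15.6% to 32.6% held 10 or more, up to 159 UMIs in a cell. Between 88 and 660 progenitors per library stood beside 78 to 565 cells that had Etv2 and only 1 companion gene and so fell just outside. At E8.5, cells with UMIs of 3 or more of 8 neural markers should lack Etv2. Of these cells, 1.01% to 2.49% met the whole rule and were progenitors. Among the rest, 6.62% to 27.4% held an Etv2 UMI at median depths of 13020 to 75442.5 UMIs. After each cell was thinned to 5000 UMIs, the share was 1.70% to 4.44% in these neural cells and 33.3% to 67.6% in E8.5 progenitors. At E7.5 the cells chosen by these markers were not used as a background, since 74.4% of them in WT host and 93.8% in Tet-TKO held UMIs of the epiblast factor Pou5f1 after thinning. The rule fixes part of this gap, and a single Etv2 UMI in a deep cell was also found in neural cells. At E8.5, in WT host libraries 1 and 2, 36.4% and 40.5% of progenitors with 1 Etv2 UMI carried more than 1% globin UMIs, against 4.68% and 1.98% of those with 10 or more. Globin-rich cells with a trace of Etv2 were therefore among the progenitors. At any Etv2 count, progenitors over 1% globin UMIs were 17.6% and 20.2% of all in E8.5 WT host. They were 4.55% to 7.95% in E8.5 Tet-TKO and 0.531% and 0% at E7.5. Doublets were not removed, and their part was not tested. The counts of calls in each comparison of progenitors below, and the E8.5 shares with blood, endothelial and extraembryonic mesoderm genes, are given with and without the progenitors over 1% globin UMIs. Leaving cells out by their globin UMIs acts on the globin genes directly, so globin values without these cells are a description.

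A difference in the share of progenitors between genotypes was not detected. At E7.5 they were 5.28% of WT host cells (377 of 7142, 95% exact binomial interval 4.77 to 5.82) and 5.88% of Tet-TKO cells (324 of 5510, 5.27 to 6.53), with 1 library each and no test. At E8.5 they were 7.36% and 5.53% of cells in the WT host libraries and 9.38%, 6.496%, 8.00% and 8.73% in the Tet-TKO libraries. These E8.5 ranges overlapped. The mean was 8.15% ± 1.24 (SD, n = 4) in Tet-TKO and 6.45% ± 1.29 (SD, n = 2) in WT host, a difference of 1.70 percentage points (two-sided exact permutation test, p = 0.267). This design cannot give a p below 0.133. The difference was 0.788 points without WT host library 2 and 2.62 points without WT host library 1. With cells thinned to 5000 UMIs before the rule was applied, the means were 2.95% ± 0.720 and 3.12% ± 0.494 and the difference turned to -0.164 points (exact permutation p = 0.8). Among cells whose tdTomato matched the sort, with a tdTomato UMI in Tet-TKO and none in WT host, the shares were 8.18% to 11.2% in Tet-TKO and 7.34% and 5.53% in WT host. There the ranges did not overlap, and the difference was 2.94 points (exact permutation p = 0.133). Progenitors without over 1% globin UMIs were on average 7.67% of the cells in Tet-TKO libraries and 5.24% in WT host libraries (exact permutation p = 0.133).

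**Figure D1:**
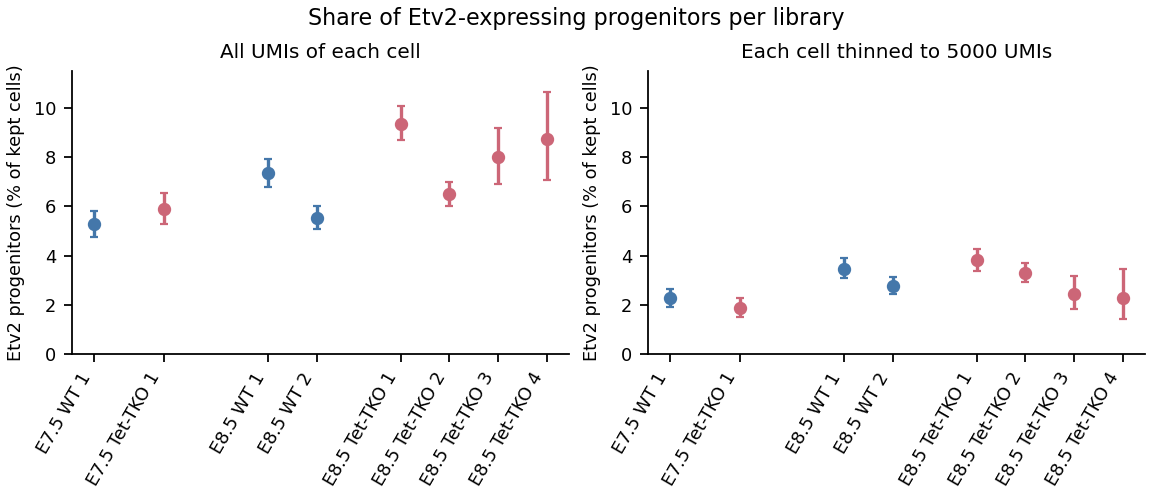
Share of Etv2-expressing progenitors among kept cells (y axis, %) in each library (x axis), from all UMIs (left) and after thinning to 5000 UMIs per cell (right). WT host is blue, Tet-TKO is red, and bars are 95% exact binomial intervals. The genotypes overlap at E8.5 in both panels, and the Tet-TKO libraries lie between 6.496% and 9.38% before thinning.

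The shares of progenitors with genes of each group are given per library, beside the globin-rich shares above. Progenitors were chosen at full depth and thinned afterwards, so thinning does not make their choice alike between libraries. After thinning, 60.9% and 61.7% of E8.5 WT host progenitors still held an Etv2 UMI. In Tet-TKO libraries 1 to 4 of E8.5, 57.4%, 67.6%, 41.5% and 33.3% did. The genotype tests of genes below likewise used cells chosen at full depth. In progenitors thinned to 5000 UMIs, 2 or more of the 14 blood transcription factors were detected in 63.9% of E7.5 WT host cells and in 20.1% of E7.5 Tet-TKO cells. At E8.5 the shares were 48.8% and 52.5% in WT host and 39.8%, 34.96%, 34.4% and 33.3% in Tet-TKO, so the genotypes did not overlap. Endothelial receptors and junction genes were detected in 62.0% and 45.5% of progenitors at E7.5. At E8.5 they were detected in 63.7% and 67.8% of WT host and in 55.2% to 75.6% of Tet-TKO progenitors, with overlap. Genes of extraembryonic mesoderm and allantois, the tissue that lines the yolk sac and forms the base of the umbilical vessels, were detected in 23.5% of E7.5 WT host progenitors against 63.6% in Tet-TKO. At E8.5 the shares were 35.3% and 27.5% in WT host and 42.5% to 51.4% in Tet-TKO. Genes of nascent mesoderm and primitive streak were detected in 14.6% and 50.2% of progenitors at E7.5 and in 3.87% to 8.05% at E8.5. Progenitors that held both blood and endothelial genes were 40.2% and 14.1% at E7.5, 29.7% and 33.4% in E8.5 WT host and 18.4% to 26.3% in E8.5 Tet-TKO. At E8.5 the mean share with blood factors was 35.6% ± 2.87 (SD, n = 4) in Tet-TKO and 50.7% ± 2.68 (SD, n = 2) in WT host, and that with extraembryonic mesoderm genes was 46.5% ± 4.54 and 31.4% ± 5.54 (two-sided exact permutation p = 0.133 for each, the smallest this design can give). Neither difference can therefore pass a threshold of 0.05. Without the progenitors over 1% globin UMIs, the shares with blood factors at E8.5 were 42.5% and 44.1% in WT host and 27.5% to 37.1% in Tet-TKO, and those with extraembryonic mesoderm genes were 39.8% and 32.3% against 44.9% to 54.1% (exact permutation p = 0.133 for each). The shares with endothelial genes were then 74.0% and 80.5% in WT host and 58.8% to 79.1% in Tet-TKO, with overlap (exact permutation p = 0.267).

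**Figure D2:**
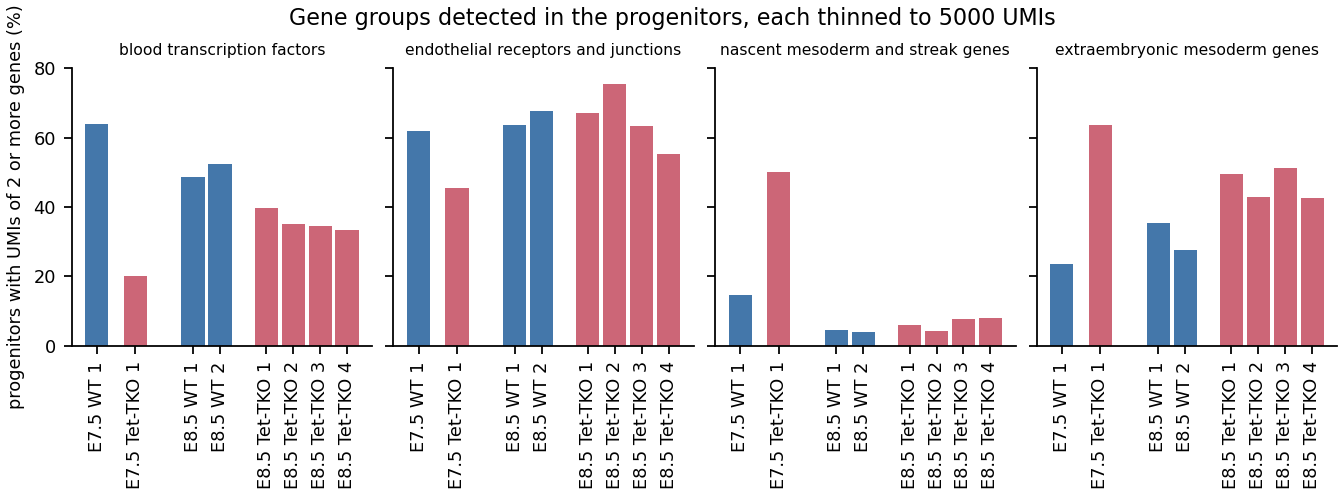
Percentage of progenitors (y axis), each thinned to 5000 UMIs, with UMIs of 2 or more genes of each group, 1 bar per library. WT host is blue and Tet-TKO is red. Blood transcription factors reach 63.9% in E7.5 WT host and 20.1% in E7.5 Tet-TKO, and the E8.5 Tet-TKO bars lie below both WT host bars.

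Of 13 blood transcription factors tested, 10 were lower in the progenitors with more Etv2. Progenitors of each library were split by their Etv2 count after thinning, into those above the library median and those at or below it, and the summed counts of both sides were compared over 8 libraries with library as a block. The median was 1 Etv2 UMI in 6 libraries and 0 in Tet-TKO libraries 3 and 4. The quasi-likelihood test of edgeR called 41 of 9177 genes (0.447%) higher in Etv2-high cells and 139 (1.51%) lower (1.96% in all), at a Benjamini-Hochberg adjusted p of 0.01 and a log2 fold change of at least 1. Of the blood transcription factors 1 was higher, and the 13 had a median log2 fold change of -1.61 against -0.00059 over all genes. Without the globin-rich cells 8 of these 10 were called lower again, Zfpm1 was not called and Klf1 was too low to be tested. Spi1, tested only there, was called lower. In that fit the background was 0.22% higher and 0.977% lower (1.2% in all). This split does not show which cells precede which. It uses Etv2, a gene of the rule. In the 6 libraries with a median of 1, every cell with a single Etv2 UMI falls on the Etv2-low side by construction. Of progenitors with a single Etv2 UMI, 36.4% and 40.5% in WT host libraries 1 and 2 of E8.5 carried more than 1% globin UMIs. In E8.5 WT host, 6.62% and 6.69% of neural cells outside the progenitors also held an Etv2 UMI. How many Etv2-low cells met the rule through such a background was not tested.

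Gata1, the master factor of erythroid and megakaryocytic cells, was lower in Etv2-high cells in 8 of 8 libraries. Its median over libraries was 2.30 CPM in Etv2-high and 17.8 CPM in Etv2-low cells, with a log2 fold change of -2.90 ± 0.25 (SE) and, without globin-rich cells, of -3.00. Runx1, which is needed for definitive blood, had medians of 14.0 and 50.7 CPM (log2 fold change -1.80 ± 0.17) and was lower in 8 of 8 libraries. Gfi1b and Nfe2, which act in erythroid and platelet precursors, had log2 fold changes of -2.88 and -3.69. Epor and Itga2b, a cytokine receptor and an integrin of early blood cells, fell by 2.85 and 2.25 on the log2 scale. Csf2rb, a receptor subunit for myeloid cytokines, had no UMI in Etv2-high cells and 67 UMIs in the others, at least 11.8-fold lower against a floor of 3 UMIs over the group. F10, coagulation factor X, had a log2 fold change of -3.68. Gata2, which acts earlier in blood formation, was not called (0.51, adjusted p = 0.0619 in edgeR) and was higher in Etv2-high cells in 7 of 8 libraries. The globin and haem genes were lower for 13 of 14 tested genes, with Hba-x (embryonic zeta-globin) at -3.23, Hba-a1 at -2.91 and Hbb-bh1 at -3.08. Among cells at or under 1% globin UMIs, 5 of 12 were lower, and the 3 values were -0.42, -0.59 and -1.81.

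The endothelial genes had calls in both directions. The transcription factors Sox7 and Foxc2 were called higher, and so was the VEGF co-receptor Nrp2. Sox7 had medians of 37.3 CPM in Etv2-high and 15.6 CPM in Etv2-low cells (log2 fold change 1.22 ± 0.16). Nrp2 had medians of 142 and 55.6 CPM (1.16 ± 0.11) and was higher in 8 of 8 libraries. Of 23 receptor and junction genes tested, 4 were lower and 1 was higher (median -0.22). Cdh5 (VE-cadherin) had medians of 19.4 and 49.8 CPM (-1.12 ± 0.16) and was lower in 7 of 8 libraries, Tie1 had a log2 fold change of -1.70, Cd34 of -1.18 and Pecam1 of -1.06. Of 13 endothelial transcription factors tested 2 were higher and 1, Mef2c, was lower at -1.01 (median 0.42). Hhex, a homeobox factor of haemangioblasts that stands in the blood list, was the exception in that list, with medians of 207 and 83.4 CPM (1.14 ± 0.11, higher in 8 of 8 libraries). The Notch ligand Jag1 rose by 1.47 ± 0.18 and was the only called gene of 8 in the Notch list. Genes with the largest rises were Rasd1 (2.34), Lax1 (2.28 ± 0.28, medians 16.9 and 3.52 CPM), the ETS factor Fev (2.10 ± 0.27, medians 20.1 and 3.52 CPM), Tnfrsf11a (1.98) and Prkg2 (1.86). Fev was higher in 8 and Lax1 in 7 of 8 libraries.
Cdh5, Tie1 and Hhex lost their calls when WT host library 1 of E8.5 was left out, at -0.96, -1.50 and 0.98. Cd34 and Pecam1 lost them without Tet-TKO library 2 of E8.5, at -0.95 and -0.84, and Pecam1 also without Tet-TKO library 1 of E8.5. Mef2c lost its call without each of 5 libraries (E7.5 Tet-TKO, both E8.5 WT host libraries, E8.5 Tet-TKO 1 and 3), between -0.99 and -0.87, and Tnfrsf11a without E8.5 WT host 1, Tet-TKO 1 or Tet-TKO 3, between 1.77 and 1.91. Without WT host library 1, 25 genes in place of 41 were higher.

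**Figure D3:**
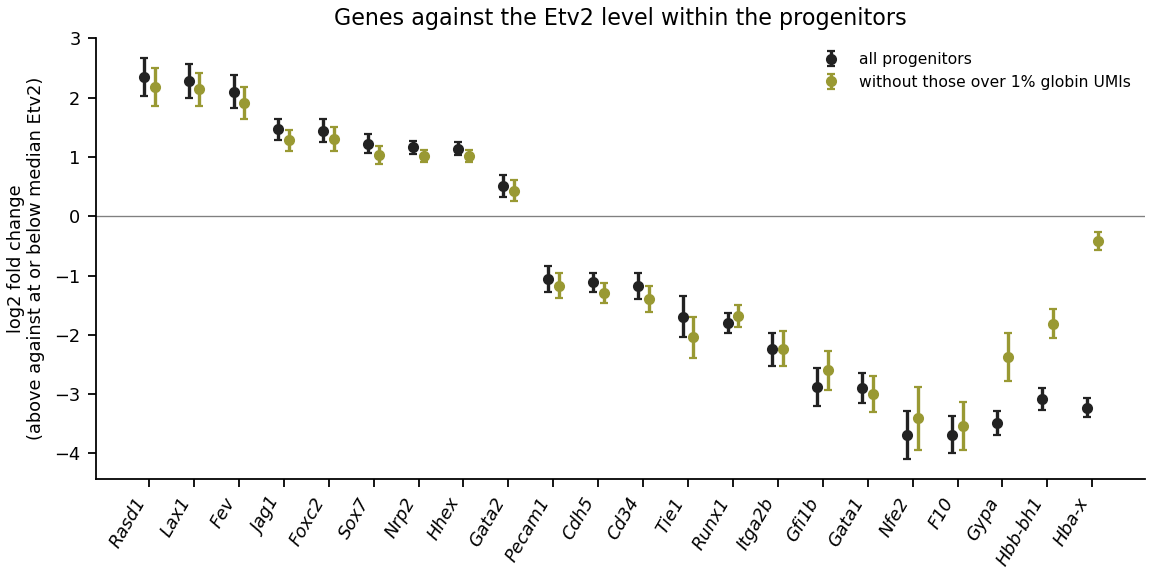
Log2 fold change (y axis, points, with SE bars) of summed thinned counts between progenitors above and at or below the library median of Etv2, for named genes (x axis), over 8 libraries. Black points use all progenitors and olive points leave out those over 1% globin UMIs. Gata1 stays near -3 in both, whereas Hba-x moves from -3.23 to -0.42.

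The progenitors were also compared with cells that met the companion rule without an Etv2 UMI, and most calls in the endothelial, globin and blood factor lists were lost without globin-rich cells. In edgeR with library as a block, 192 of 14057 genes (1.37%) were higher in progenitors and 129 (0.918%) were lower (2.28% in all). Of 25 endothelial receptor and junction genes, 10 were higher and none was lower (median log2 fold change 0.94 against -0.01 over all genes), and of 15 endothelial transcription factors 4 were higher. Of 17 globin and haem genes 16 were lower, and of 14 blood transcription factors 4 were lower and 1, Hhex, was higher. Without cells over 1% globin UMIs on either side, 53 genes (0.389%) were higher and 33 (0.242%) were lower (0.632% in all), 1 of 27 endothelial receptor and junction genes was higher and 1 was lower, 2 of 15 endothelial transcription factors were higher, 0 of 14 blood transcription factors were lower and 1 was higher, and 0 of 15 globin and haem genes were called. The endothelial count thus fell from 10 to 1 once globin-rich cells were left out. At E8.5 the comparison cells were unevenly spread, with 1446 and 1942 in WT host and 70 to 711 in Tet-TKO libraries. Those at or under 1% globin UMIs were 431 of 1446 and 393 of 1942 in WT host. In Tet-TKO libraries 1 to 4 they were 419 of 487, 513 of 711, 146 of 181 and 61 of 70.

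Some genes kept their calls without the globin-rich cells. Lax1, an adaptor protein of lymphocyte signalling, had a median of 6.81 CPM in progenitors and 0.0642 CPM in the comparison cells (log2 fold change 5.91 ± 0.30, higher in 8 of 8 libraries, and 5.21 without globin-rich cells). Mmp9, a matrix metalloprotease, had medians of 12.5 and 0.505 CPM (3.81 ± 0.35). Fev had medians of 10.8 and 0.586 CPM (3.78 ± 0.31), and both were higher in 8 of 8 libraries. C1ql2 (4.52) and Btbd11 (3.57) were also among the 5 genes with the largest rise, at medians of 1.04 and 0.766 CPM, and kept their calls at 3.51 and 2.67. Sox7 (2.21), the gap junction gene Gja4 (2.38), the ETS repressor Elk3 (1.79), Hhex (1.77), Jag1 (1.85) and Hoxa11 (1.76) were higher with and without globin-rich cells. Eng, a TGF-β co-receptor of endothelium, was higher by 1.61 and at 0.94 without globin-rich cells, where it was not called. Klf1, the erythroid Krüppel-like factor, went from -1.92 to -0.91 and Gata1 from -1.31 to -0.66, and both lost their calls. Hba-x (-2.65), Hba-a2 (-2.68) and Hbb-bs (-2.75) lost theirs as well. Pdia2 (-3.29), Slc4a1 (-3.14) and Ermap (-3.04) also fell and did not pass the filter on low counts without those cells. Jag1 lost its call without Tet-TKO library 2 of E8.5 (1.78) and Pdia2 without Tet-TKO library 1 or 2 (-3.28 and -3.29). The counts of genes called fell to 102 and 68 without WT host library 1 of E8.5, 114 and 78 without WT host 2, 117 and 72 without Tet-TKO 2, and 122 higher without Tet-TKO 3.

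The question of the chimaeras is what the loss of TET enzymes did in these cells. At E8.5, 47 of 13287 genes (0.354%) were higher in Tet-TKO progenitors and 125 (0.941%) were lower (1.29% in all) by the edgeR test over 6 libraries. With Tet-TKO libraries 1 and 2, and 3 and 4, summed as if each pair were 1 pool, 31 were higher and 64 were lower. Without the progenitors over 1% globin UMIs, 37 (0.28%) were higher and 68 (0.515%) were lower (0.795% in all). The Tet-TKO range lay above both WT host libraries for 15.9% of all genes and below them for 15%, so separation of the ranges alone is common with 4 against 2 libraries. In sums over cells, fewer cells of a kind and less RNA per cell cannot be told apart.

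Among the lists used here, that of globin and haem genes had the most lower genes. Lower genes outside the lists were not grouped. Of 17 globin and haem genes 13 were lower and 0 were higher, with a median log2 fold change of -2.88 against 0.01 over all genes. Without globin-rich progenitors, 5 of 14 were lower and the median was -1.46. Hba-x was at 6324 and 11296 CPM in the WT host libraries and at 466, 752, 787 and 408 CPM in the Tet-TKO libraries (-3.91 ± 0.31, edgeR adjusted p = 0.000602). Without globin-rich progenitors it was at 332 and 631 CPM in WT host and at 31.4, 34.2, 10.3 and 48.1 CPM in Tet-TKO, and the log2 fold change was -3.94. Hba-a2 (adult alpha-globin, with a near-identical copy) fell by 3.73 and by 3.85 without those cells. Hbb-bh1, an embryonic beta-like globin, was at 4506 and 7195 CPM in WT host and 880 to 1164 CPM in Tet-TKO (-2.53 ± 0.17), and fell by 1.03 without globin-rich cells. Klf1 was at 30.5 and 36.2 CPM against 6.72, 4.53, 3.06 and 4.95 CPM (-2.79 ± 0.27, edgeR adjusted p = 0.00141), but at -1.15 with an edgeR adjusted p of 0.465 without globin-rich cells. Alas2, the first enzyme of erythroid haem synthesis, had a log2 fold change of -3.36 and of -1.89 without those cells, where it lost its call. Hemgn, an erythroid nuclear protein, fell by 3.67 and was too low to test without them. Over all kept cells of E8.5, the 7 globin genes summed to 19548 and 47999 CPM in WT host and to 595 to 1681 CPM in Tet-TKO. In thinned neural cells of E8.5, Klf1 was detected in 1.31% and 2.24% in WT host and 0% to 0.64% in Tet-TKO. Gata1 was detected there in 1.63% and 2.11% against 0% to 0.398%. How much RNA of other cells adds to the progenitor counts was not tested.

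Of the 8 genes with the largest falls, 4 code for products of maturing red cells or stand in the haem list. Mrap, an accessory protein of melanocortin receptors that the list counts among erythroid genes, was at 18.8 and 34.4 CPM in WT host and at 0, 0, 0.102 and 0 CPM in Tet-TKO. That is 519 UMIs against 1 UMI, a ratio of 1119 with a 95% counting interval from 200 to 44289. Intervals of this kind pool the libraries of each genotype and cover counting error only, not the spread between libraries. Slc4a1, the band 3 anion exchanger, had 207 UMIs against 3 UMIs (ratio 149, 50.2 to 727), with 4.12 and 18.6 CPM in the WT host libraries. Rhag, the Rh-associated glycoprotein, had 67 UMIs against 1 UMI (ratio 144, 25.1 to 5791). Rhd, its blood group partner, was at 4.45 and 5.56 CPM against at most 0.130 CPM (-5.65 ± 0.47). Slc4a1, Rhag, Rhd and Nxpe2 did not pass the filter on low counts without globin-rich progenitors. Nxpe2 was at 13.5 and 21.4 CPM against at most 0.391 CPM (-5.98 ± 0.36), and Sdsl had 65 UMIs against 2 UMIs (ratio 70.1, 18.6 to 591). Afp and Ttr, secreted proteins of visceral endoderm, complete these 8. Ttr was at 86.9 and 34.3 CPM in WT host and 0.522 to 1.27 CPM in Tet-TKO (-5.88 ± 0.41), and Afp fell by 5.95 ± 0.54. Of 8 yolk sac and visceral endoderm markers tested, 6 were lower, Rbp4 among them at -2.91, and 3 of these 6 kept the call without globin-rich progenitors, while Amn, Apoa1 and Apoa4 did not. The summed level of the list was 213.8 and 83.8 CPM in WT host and 6.0 to 9.7 CPM in Tet-TKO. The part of visceral endoderm RNA in the host libraries was not tested.

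Klf1 and Spi1 were the called genes among 14 blood transcription factors, whose median log2 fold change was -0.52. Spi1 (PU.1), the factor of myeloid cells, was at 6.10 and 5.68 CPM in WT host and at 0.242, 0.0963, 0.510 and 0 CPM in Tet-TKO (-4.69 ± 0.51, edgeR adjusted p = 0.00235). Unlike Klf1 it was as low without globin-rich progenitors (-4.84, edgeR adjusted p = 0.00284). Pf4, a platelet chemokine, was at 7.09 and 10.8 CPM against 2.48, 1.64, 1.73 and 0.913 CPM (-2.35 ± 0.35). It was the called gene among 9 blood surface and receptor genes and was called at -2.58 without globin-rich cells. The myeloid genes Fcer1g (3.30 and 11.1 CPM against at most 0.485 CPM, -4.13), Laptm5 (7.09 and 6.74 against 0.674 to 1.63 CPM, -2.66) and Coro1a (-2.34) were 3 of 4 tested myeloid markers and kept their calls without globin-rich cells. Their list summed to 19.8 and 30.4 CPM in WT host and 3.6 to 6.2 CPM in Tet-TKO, and 1.32% and 2.2% of WT host progenitors held 3 or more of the 7 markers. Its part in the Spi1 result was not tested.
The rest of the blood list gave no call. Gata1 was at 41.3 and 37.4 CPM against 20.2, 13.4, 13.4 and 14.1 CPM, and its log2 fold change of -1.39 ± 0.21 missed the threshold (edgeR adjusted p = 0.0105). It was at -0.61 without globin-rich cells. Gata2 was at 26.9 and 30.05 CPM against 13.5 to 24.2 CPM (-0.71, edgeR adjusted p = 0.114). Itga2b had a log2 fold change of -0.89 (edgeR adjusted p = 0.0232). Runx1 overlapped between genotypes, at 39.1 and 35.5 CPM in WT host and 21.4 to 49.1 CPM in Tet-TKO (-0.14, edgeR adjusted p = 0.825), and its sign depended on the choice of cells.

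Of 25 endothelial receptor and junction genes 1, Flt1, was called, and 22 had a negative sign (median -0.59). Flt1, the decoy receptor for VEGF-A, was at 46.4 and 53.4 CPM in WT host and at 23.8, 24.7, 28.4 and 20.6 CPM in Tet-TKO (-1.07 ± 0.15, edgeR adjusted p = 0.00646). The groups did not overlap, and the fall was 1.27 without globin-rich cells. Flt1 lost its call when any 1 of the 6 libraries was left out, with values between -1.16 and -0.98. None of 15 endothelial transcription factors was called (median -0.16). Sox18 was at 54.3 and 53.6 CPM against 23.7, 27.9, 21.4 and 13.4 CPM (-1.34, edgeR adjusted p = 0.0291) and passed among progenitors with at least 4 Etv2 UMIs (-1.60, edgeR adjusted p = 0.00152). Cdh5 overlapped (41.1 and 41.1 CPM against 29.6 to 43.6 CPM, -0.13). Nrp2 had the other sign, at 66.7 and 62.6 CPM against 104, 114, 163 and 125 CPM (0.91, edgeR adjusted p = 0.0142, not called).

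No gene of the mesoderm lists was called. All 15 tested extraembryonic mesoderm and allantois genes had a positive log2 fold change, with a median of 0.73, against 6881 of 13287 genes in all. Bmp4, the ligand that induces extraembryonic mesoderm, was at 29.7 and 23.7 CPM in WT host and 48.2, 37.2, 63.5 and 70.5 CPM in Tet-TKO (0.98, edgeR adjusted p = 0.0569). Hand1 was at 76.9 and 42.6 CPM against 64.2 to 97.4 CPM (0.41). Nascent mesoderm and streak genes had a median of 0.75 over 12 tested genes, 9 of them positive, with T (Brachyury) at 6.93 and 6.98 CPM against 12.5, 9.24, 11.4 and 26.1 CPM (1.02, edgeR adjusted p = 0.235) and Mesp1 at 4.04 and 3.55 CPM against 3.88 to 10.5 CPM (0.80). Fgf8 had a log2 fold change of 1.03 (edgeR adjusted p = 0.164). Fgf3, expressed in early mesoderm, was at 33.7 and 27.8 CPM against 119, 53.4, 40.3 and 57.5 CPM (1.12, edgeR adjusted p = 0.25). Lefty2 was too low to test. None of the genes in the BMP, FGF, Notch, Nodal or VEGF lists was called, with medians of 0.33, 0.33, -0.32, 0.23 and 0.02, and none in the lists of DNA methylation enzymes, pluripotency genes or cell cycle genes, with medians of -0.03, -0.73 and -0.08.

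Of the 8 genes with the largest rises, 5 are annotated as processed pseudogenes, and their counts are uncertain where reads also fit the parent gene. Rps13-ps1 was at 7.59 and 4.61 CPM in WT host and at 103, 75.4, 129 and 151 CPM in Tet-TKO (4.14 ± 0.32). Rps3a3 (3.89), Rps15a-ps8 (3.85), Rpl29-ps5 (3.602) and Pcna-ps2 (3.50) rose as well. Eif3j2, a near-identical copy of a translation initiation factor gene, was at 7.09 and 6.74 CPM against 50.0, 51.9, 59.5 and 71.7 CPM (3.02 ± 0.18). Gbp4, an interferon-induced GTPase, was at 0.412 and 0.828 CPM against 6.84, 9.92, 7.85 and 5.22 CPM (3.601 ± 0.44), and AA465934 was at 3.63 and 3.19 CPM against 21.4 to 56.1 CPM (3.35 ± 0.39). The mixed strain background of the Tet-TKO cells goes with genotype here. Leaving out WT host library 1 or 2 left 8 and 6 genes higher and 24 and 21 lower, and leaving out Tet-TKO library 3 left 34 and 63. Klf1, Spi1, Pf4, Coro1a and Laptm5 lost their calls without either WT host library, with log2 fold changes of -2.90 and -2.68, -4.63 and -4.76, -2.63 and -2.05, -2.48 and -2.19, and -2.62 and -2.71. Hemgn (-4.04 and -3.22), Rhag, Rhd (-5.80 and -5.51), Sdsl, Rpl29-ps5 (4.17 and 3.28), AA465934 (3.47 and 3.26) and Gbp4 (3.13 and 4.10) did so as well. Afp lost its call without WT host library 1 (-5.38), and Slc4a1, Rps13-ps1 (3.84) and Pcna-ps2 (2.96) without WT host library 2. Tet-TKO library 3 was needed for the calls of Hemgn (-3.60), Gbp4 (3.62), AA465934 (3.34), Rhag and Slc4a1, and, like Tet-TKO library 1 or 2, for those of Coro1a and Pf4. Fcer1g kept its call without WT host library 1 and lost it without any other library, between -4.31 and -3.06. Of 45 named genes, 14 and 17 had lost their calls without WT host library 1 and 2, 9 without Tet-TKO library 3, and 2 to 4 without another Tet-TKO library. Without a WT host library the remaining one is assumed to vary like the Tet-TKO libraries.

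**Figure D4:**
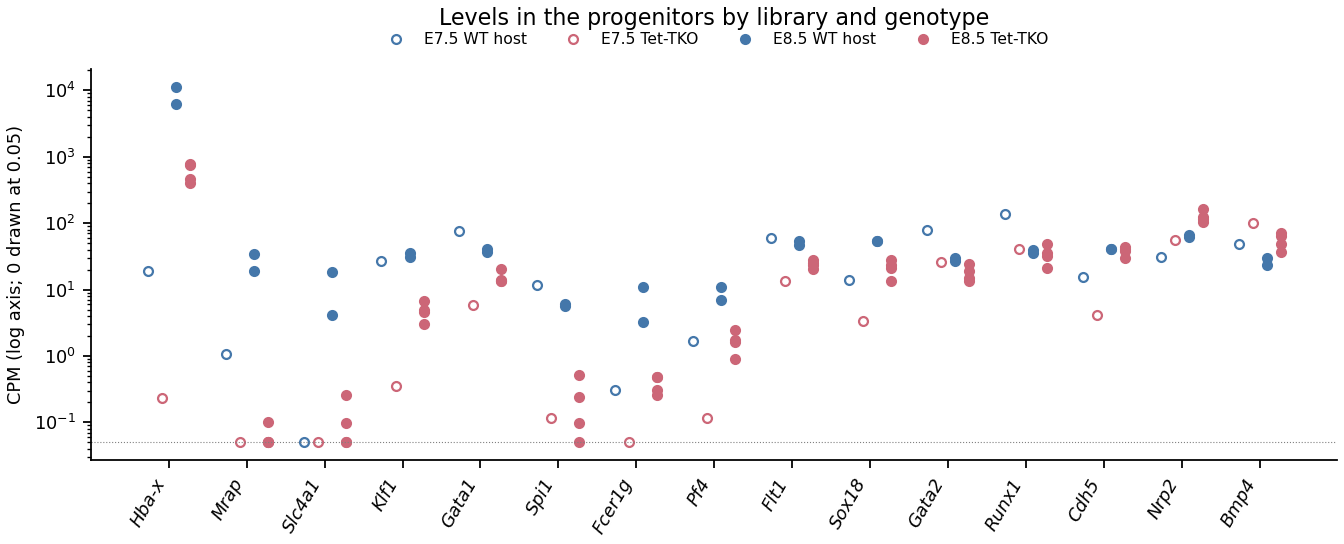
Level in progenitors (y axis, CPM on a log axis, 0 drawn at 0.05) for named genes (x axis), 1 point per library. Open points are E7.5, filled points E8.5, WT host is blue and Tet-TKO is red. Hba-x, Klf1, Spi1 and Flt1 have all E8.5 Tet-TKO points below both WT host points, whereas Runx1 and Cdh5 overlap.

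For E7.5, a day earlier, levels of some genes named above are given for the 1 library of each genotype. These libraries have no replicate and were not tested. Of the genes given here, Gata1, Runx1, Mesp1, T, Hand1, Bmp4 and Fgf3 were not called at E8.5. Intervals are 95% exact Poisson intervals and cover counting error only. Spi1 was at 11.6 CPM (9.17 to 14.6) in WT host and 0.116 CPM (0.00294 to 0.646) in Tet-TKO progenitors. Gata1 was at 76.4 CPM (69.8 to 83.4) against 5.92 CPM (4.405 to 7.78), and Runx1 at 138 CPM (129 to 148) against 41.5 CPM (37.3 to 46.1). Flt1 was at 59.4 CPM (53.6 to 65.6) against 13.6 CPM (11.2 to 16.3). Hbb-bh1 was at 487 CPM (470 to 504) against 7.42 CPM (5.72 to 9.48), and Klf1 at 26.8 CPM (23.0 to 31.1) against 0.348 CPM (0.0718 to 1.02). The intervals of these 6 genes did not overlap between the libraries, in which 0.531% and 0% of progenitors were over 1% globin UMIs. The share of all genes whose intervals separate in this way was not computed. Mesp1, T, Hand1 and Bmp4 had the opposite order, and Fgf3 did not, at 354 CPM in WT host and 268 CPM in Tet-TKO. Mesp1, a factor of nascent mesoderm, was at 40.1 CPM (35.4 to 45.3) in WT host and 171 CPM (162 to 180) in Tet-TKO. T was at 60.9 CPM (55.1 to 67.2) against 96.6 CPM (90.2 to 103), and Hand1 at 92.0 CPM (84.8 to 99.7) against 240 CPM (230 to 251). Bmp4 was at 49.3 CPM (44.1 to 55.0) against 101 CPM (94.7 to 108). Eif3j2 was at 4.75 CPM (3.22 to 6.74) against 50.8 CPM (46.2 to 55.8), so the order of this near-copy gene was as at E8.5.

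To show the sequences around genes named here, the 250 bases before the annotated start are printed for 3 erythroid genes and for Flt1, from the RefSeq entries of build GRCm38.p6. They are written 5′ to 3′ on the strand of the gene, in lower case with each CG, the pair that TET enzymes act on when methylated, in capitals. Hba-x is at chr11:32276350-32276599 (+ strand), Klf1 at chr8:84901732-84901981 (+ strand), Alas2 at chrX:150547167-150547416 (+ strand) and Flt1 at chr5:147726012-147726261 (- strand).
Hba-x: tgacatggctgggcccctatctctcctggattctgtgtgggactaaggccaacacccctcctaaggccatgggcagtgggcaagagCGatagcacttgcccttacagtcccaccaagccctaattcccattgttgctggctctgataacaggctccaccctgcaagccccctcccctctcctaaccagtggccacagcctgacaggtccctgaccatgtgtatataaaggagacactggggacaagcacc
Klf1: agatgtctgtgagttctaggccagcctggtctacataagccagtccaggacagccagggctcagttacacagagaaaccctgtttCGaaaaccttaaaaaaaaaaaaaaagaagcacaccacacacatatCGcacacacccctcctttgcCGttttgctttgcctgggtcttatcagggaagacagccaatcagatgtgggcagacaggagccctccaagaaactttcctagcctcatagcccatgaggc
Alas2: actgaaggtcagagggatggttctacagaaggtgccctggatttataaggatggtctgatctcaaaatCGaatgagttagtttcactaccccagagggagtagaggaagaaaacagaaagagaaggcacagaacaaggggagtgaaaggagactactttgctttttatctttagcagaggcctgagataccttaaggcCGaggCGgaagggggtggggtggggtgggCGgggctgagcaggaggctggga
Flt1: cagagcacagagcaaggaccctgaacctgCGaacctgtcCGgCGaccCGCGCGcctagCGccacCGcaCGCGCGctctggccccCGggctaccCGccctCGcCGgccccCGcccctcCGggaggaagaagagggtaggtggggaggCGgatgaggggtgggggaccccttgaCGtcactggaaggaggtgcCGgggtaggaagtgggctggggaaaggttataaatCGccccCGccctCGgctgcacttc
The windows of Hba-x, Klf1 and Alas2 held 1, 3 and 4 CG, against a median of 6 (quartiles 2 and 16) over 32851 RefSeq windows of this length, and 18.8%, 37.8% and 44.4% of all windows held no more. Flt1 held 23, and 13.3% of all windows held at least as many. AGATAA, a form of the GATA motif, searched on both strands, was in the Alas2 window and in 9.99% of all windows, and was in none of the other 3. Other forms of the motif were not searched. The printed Hba-x window holds another form, tgataa, and the Klf1 window holds it on the other strand (ttatca). Methylation was not measured in these files, and a CG count, a motif match or its lack is a description of the letters only. The paper reports TET-dependent demethylation at distal regulatory elements and little effect at promoters, which had low methylation in both genotypes.

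Between E7.5 and E8.5, 15 of 24 endothelial receptor and junction genes rose in the progenitors, while 5 of 12 streak genes and 5 of 10 pluripotency and epiblast genes fell. The fit was additive, and a change within Tet-TKO alone was not tested. With genotype as a covariate over 8 libraries, 306 of 13301 genes (2.3%) were higher at E8.5 and 112 (0.842%) were lower by the edgeR test (3.14% in all). Without globin-rich progenitors the percentages were 2.79% and 0.804% (3.6% in all). Since E7.5 had 1 library per genotype, the calls leaned on both. Without the E7.5 Tet-TKO library 21 genes were higher and 3 were lower, and 29 of 38 named genes lost their calls while all 38 kept their direction. Without the E7.5 WT host library 150 were higher and 79 lower. Leaving out E8.5 WT host library 1 or 2 left 182 or 165 higher and 80 or 57 lower.

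Of 24 endothelial receptor and junction genes 15 rose and 0 fell (median log2 fold change 2.02 against 0.02 over all genes), and of 15 endothelial transcription factors 6 rose (median 1.60). Emcn, a sialomucin of endothelium, had no UMI in either E7.5 library and 8.42 to 34.7 CPM in the 6 E8.5 libraries, at least 84.2-fold higher against a floor of 3 UMIs over the E7.5 libraries. Cldn5, a tight junction protein, was at 2.45 and 1.74 CPM at E7.5 and 21.7 to 52.9 CPM at E8.5 (4.20 ± 0.33). Nr2f2, a factor of venous endothelium, was at 0.765 and 0.928 CPM against 12.8 to 30.2 CPM (4.61 ± 0.46). The SOXF factors Sox17 (10.6 and 10.3 against 35.1 to 68.4 CPM, 2.24) and Sox18 (2.26) rose too. Cdh5 (2.17), Tie1 (2.63), Cd34 (2.80), Plvap (2.98) and Foxc2 (2.92) were called as well, each with E8.5 levels above both E7.5 libraries. The share of all genes separated in this way was not computed. Cdh5, Tie1 and Cd34 lost their calls without E8.5 WT host library 1, WT host 2 or Tet-TKO 3. Tie1 and Cd34 also lost theirs without Tet-TKO 1, and Tie1 without Tet-TKO 2. Without the E7.5 Tet-TKO library the values were 1.40 for Cdh5, 1.75 for Tie1 and 2.30 for Cd34.

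**Figure D5:**
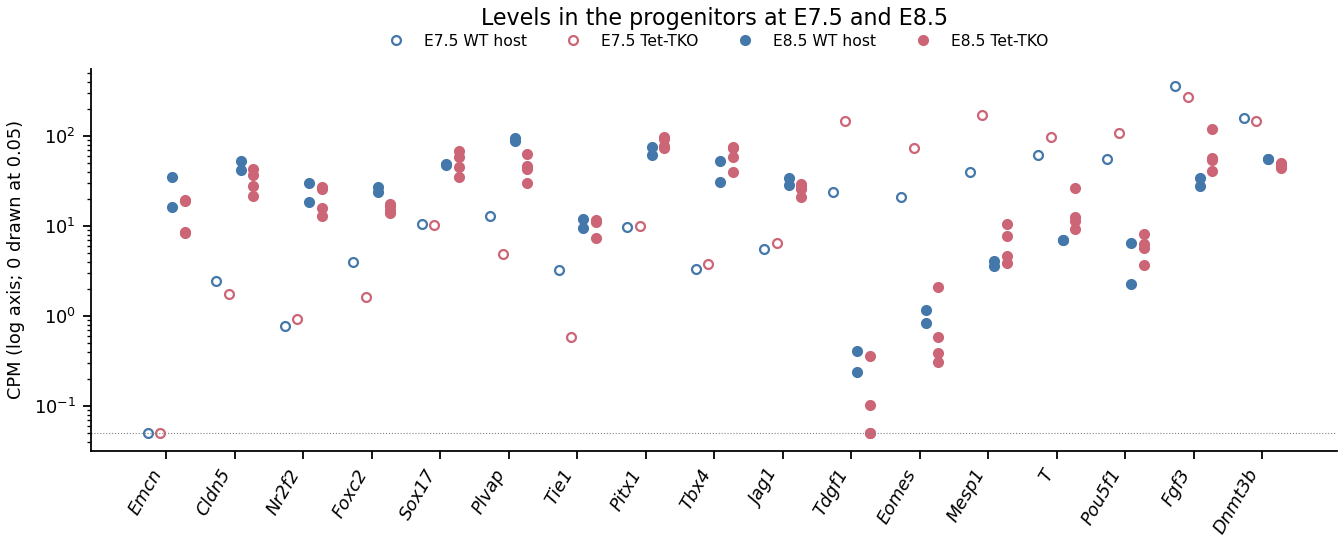
Level in progenitors (y axis, CPM on a log axis, 0 drawn at 0.05) for named genes (x axis), 1 point per library. Open points are E7.5, filled points E8.5, WT host is blue and Tet-TKO is red. Cldn5 is at 2.45 and 1.74 CPM at E7.5 and at 21.7 CPM or more at E8.5, and Tdgf1 and Eomes have all E8.5 points below both E7.5 points.

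Of 14 blood transcription factors 1 rose, Lyl1 (1.45, edgeR adjusted p = 0.00549, and 1.34 and not called without globin-rich cells), with a median of -0.07, and Gata2 was at -1.05 (edgeR adjusted p = 0.0193, not called). The fit has a single stage term for both genotypes, so this median need not describe either. The share of thinned progenitors with blood factors went from 63.9% to 48.8% and 52.5% in WT host. In Tet-TKO it went from 20.1% to between 33.3% and 39.8%. Cd93, a surface receptor of endothelial and early blood cells, rose by 4.07, from 0.459 and 0.116 CPM at E7.5 to between 1.999 and 7.33 CPM at E8.5. The globins rose for 10 of 17 genes, with Hba-x at 9.15, Hba-a2 at 8.79 and Hba-a1 at 8.35. Without globin-rich cells 3 of 14 rose and these were called at 5.35, 5.60 and 5.18. Hbb-bh0, a pseudogene of the beta-globin cluster, had no UMI at E7.5 and was at least 51.4-fold higher at E8.5.

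Among extraembryonic mesoderm genes Pitx1, Tbx4 and Hoxa11, homeobox and T-box genes of the hindlimb and allantois region, were the 3 of 15 that rose. Pitx1 was at 9.80 and 10.1 CPM at E7.5 and 61.2 to 98.0 CPM at E8.5 (2.91 ± 0.16), Tbx4 rose by 3.81 and Hoxa11 by 3.86. Jag1 was at 5.51 and 6.496 CPM against 20.7 to 34.4 CPM (2.18 ± 0.24). Cdkn1c, a cyclin-dependent kinase inhibitor, was at 115 and 56.7 CPM against 404 to 635 CPM (2.62 ± 0.27) and was the called gene of 13 in the cell cycle list. Vegfc (1.57) rose among the VEGF ligands, 2 of 8, and Acvrl1, the ALK1 receptor (2.54), was the 1 of 12 BMP response genes that rose.

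Of 12 streak genes 5 fell (median -1.47) and of 10 pluripotency and epiblast genes 5 fell (median -2.02). Tdgf1, the Nodal co-receptor, was at 23.6 and 145 CPM at E7.5 and 0 to 0.412 CPM at E8.5 (-8.70 ± 0.50). Eomes was at 20.8 and 73.9 CPM against 0.306 to 2.12 CPM (-5.60 ± 0.48). Mesp1 fell by 4.22, T by 2.94 and Lhx1 by 2.71. Pou5f1 (OCT4) was at 56.0 and 109 CPM against 2.25 to 8.08 CPM (-4.00 ± 0.30), and Nanog fell by 5.05 and Pim2 by 2.18. Fgf3 was at 354 and 268 CPM against 27.8 to 119 CPM (-2.76 ± 0.42), Fgf5 fell by 5.18 and Lefty2 by 2.60 (not called without globin-rich cells, at -2.46), and 3 of 12 FGF and 2 of 8 Nodal pathway genes fell. Slpi, a protease inhibitor, fell by 4.95. Of 9 genes for DNA methylation enzymes 2 fell. Dnmt3b was at 159 and 146 CPM at E7.5 and 44.2 to 55.8 CPM at E8.5 in both genotypes (-1.62 ± 0.10), and Dnmt3l fell by 3.58. In every gene of this paragraph the E7.5 and E8.5 libraries did not overlap, and the share of all genes separated in this way was not computed. Fgf3 lost its call without E8.5 WT host library 1 or 2 (-2.67 and -2.56) and Dnmt3l without WT host 2 (-3.35). Lefty2 lost it without E8.5 WT host 1, Tet-TKO 1 or Tet-TKO 2, between -2.59 and -2.44.

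Whether the genotype effect was particular to progenitors was asked by an interaction with the Etv2-negative comparison cells at E8.5. The share of globin-rich cells among these comparison cells differed between genotypes, as given above. In edgeR, 311 of 14108 genes (2.2%) had a higher and 588 (4.17%) a lower Tet-TKO effect in progenitors (6.37% in all) at an adjusted p of 0.01. Without cells over 1% globin UMIs none passed in edgeR, with 1122 genes at an unadjusted p under 0.05, and none passed without WT host library 2, with 2879 genes at an unadjusted p under 0.05. Leaving out WT host library 1 left 4 and 17, Tet-TKO library 1 left 10 and 57, and Tet-TKO library 3 left 38 and 154. Leaving out Tet-TKO library 2 or 4 left 512 or 568 higher. None of the genotype differences above is therefore given as particular to progenitors. In the comparison cells themselves the edgeR test called 308 of 13514 genes (2.28%) higher in Tet-TKO and 266 (1.97%) lower (4.25% in all). There 13 of 17 globin and haem genes were lower in Tet-TKO (median -3.32), 4 of 14 blood transcription factors were lower, and 7 of 15 extraembryonic mesoderm genes were higher.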

How the data were processed

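Single-cell RNA-seq (10x Genomics 3′ v3) of 8 libraries from Tet-TKO chimaeras was analysed. Reads had been aligned to mm10 in Cell Ranger by the authors, and the deposited values are unnormalised UMI counts for each gene in each barcode. Per the file headers the software version is 3.1.0, and the study's methods name a later version of Cell Ranger. Libraries held 65601218 to 136982886 UMIs. The number of columns from other samples left unused was 0.

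A barcode entered the analysis with no fewer than 1500 UMIs, of which mitochondrial genes took up to 30% and ribosomal protein genes up to 35%. Progenitors were chosen by Etv2 and 2 or more of 5 companion genes. UMIs of progenitors were summed per library, the replicate, and tested with edgeR 4.0.16 in R 4.3.3 (filterByExpr, TMM, estimateDisp, glmQLFit, glmQLFTest). A call needed a Benjamini-Hochberg adjusted p under 0.01 with a change of at least 1 on the log2 scale, for the interaction at the adjusted p alone, without the 6 rule genes and tdTomato. Levels are CPM of the sums. The SE of an edgeR log2 fold change is its absolute value divided by the square root of the F statistic of the test. Thinning drew 5000 UMIs per cell. Scripts used Python 3.11.15, numpy 2.4.6, scipy 1.17.1, pandas 2.3.3 and matplotlib 3.10.9, and DESeq2 1.42.0 was an alternative. On simulated data with 200 genes changed by 2 on the log2 scale, 98% were recovered for genotype over 13241 genes, 98% for stage, 62% for the interaction, and 100% for the Etv2 level and for the comparison with Etv2-negative cells. The changed genes were drawn from those with higher counts, with a single dispersion for all genes and independent libraries. Recovery of genes with low counts, or with libraries as alike as Tet-TKO 1 and 2, was not simulated.

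The members and the lists of genes were chosen with earlier results of these data known. Named genes are the rule genes, the called genes with the largest change in each direction (8 for genotype, where every Tet-TKO library lies outside the WT host range, and 5 otherwise, leaving out tdTomato, Xist, Tsix, Y-linked genes and genes named Gm or ending in Rik), list members in order of adjusted p, and blood and signalling genes that the study names. Tet1 to Tet3, Runx1, Cdh5, Nrp2, Sox18, Bmp4, Hand1, T and Mesp1 in the genotype comparison, and some list members elsewhere, were picked after their values were seen. The alternatives without progenitors over 1% globin UMIs and with at least 4 Etv2 UMIs were chosen after seeing the data.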

Additional observations from a re-analysis of the deposited data

Results flagged for a closer look

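In 46 groups of 4 libraries examined for a library apart from the rest, 3 stood out by the gap of 1 library to the nearest of the others as a share of the group's range, where chance gives about 5% of groups. All were levels in the E8.5 Tet-TKO progenitors. Mrap and Rhag each had 1 UMI, in Tet-TKO library 3, and none in the other 3, a gap of 1. With 1 UMI in 1 library the gap is 1 by construction, so these 2 say nothing of the library. Gata1 was at 20.2 CPM in Tet-TKO library 1 and at 13.4 to 14.1 CPM in the other 3, a gap of 0.894.

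The Tet-TKO effect at E8.5 differed between progenitors and Etv2-negative cells, by the interaction test of edgeR, for 10 named genes with the largest differences in each direction. On the log2 scale the differences were 2.34 for Sgk3, 2.04 for Ucp2, 1.76 for Atp8a1, 1.53 for Hebp1 and 1.49 for Grina. They were -4.51 for Ankrd1, -3.42 for Rhag, -3.38 for Mrap, -2.70 for Col13a1 and -2.50 for Ndnf. None of these was called without cells over 1% globin UMIs, and all 10 lost the call without WT host library 2.

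Fgf3 was lower in the E7.5 Tet-TKO library than in the E7.5 WT host library, by -0.40 on the scale of log2(CPM + 1), and higher in all 4 E8.5 Tet-TKO libraries than in both WT host libraries. The difference between stages was not tested.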

How the results depend on the processing

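Counts are given as genes higher and lower. For genotype they were 47 and 125. They moved to 138 and 224 with DESeq2, 286 and 383 without the filter on low counts, 16 and 20 with at most 30 progenitors per library, 31 and 64 with Tet-TKO libraries summed in pairs, and 97 higher with all 8 libraries. The lower count was 60 with at least 3 companion genes, 57 with at least 2 Etv2 UMIs, 68 with at least 4, 68 without globin-rich progenitors, 79 after thinning and 82 without progenitors with 3 markers of other cells. With 1 library left out it was 6 to 50 higher and 21 to 103 lower. A replicate block on the numbers shared by the labels gave 221 and 442. Deviations of same-numbered libraries correlated at 0.073 over 13294 genes. With 2 libraries per genotype this value cannot show whether the numbers pair the libraries. The paper sets each Tet-TKO sample against a matching WT host, but the labels do not name these matches. The main test used no pairing.

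For stage, counts of 306 and 112 were 846 and 337 without the filter, 563 and 188 in WT host alone and 68 lower after thinning, and 21 to 351 and 3 to 121 with 1 library left out. For the Etv2 level, 41 and 139 were 219 lower without the filter, 20 and 89 without globin-rich cells, 293 and 324 without a minimum fold change, and 25 to 49 and 101 to 165 with 1 library left out. Against Etv2-negative cells, 192 and 129 were 329 and 258 without the filter, 248 lower after thinning, 53 and 33 without globin-rich cells, 499 and 263 without a minimum fold change, and 102 to 215 and 68 to 165 with 1 library left out. There, Tet-TKO library 2 gave 117 and 72, Tet-TKO library 3 gave 122 higher, and WT host libraries 1 and 2 gave 102 and 68 and 114 and 78. The interaction had 596 higher with DESeq2 size factors, 1366 and 1322 without the filter, 0 and 0 without globin-rich cells, and 0 to 568 and 0 to 834 with 1 library left out. The share of progenitors turned to -0.164 after thinning, was 2.94 points in cells whose tdTomato matched the sort, against 1.70, and was 0.788 to 2.62 points with 1 library left out. The causes of these shifts were not tested.

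Among the single genes recomputed for each comparison, signs turned for genotype values that were not called. Runx1 (-0.40 to 0.024 with 1 library left out) was 0.48 with 3 companion genes, 0.68 with 2 and 1.07 with 4 Etv2 UMIs, 0.70 with 30 progenitors, 0.29 without markers of other cells, 0.014 without globin-rich cells and 0.024 without Tet-TKO library 2. Cdh5 was 0.34 with 2 and 0.52 with 4 Etv2 UMIs, 0.0030 with 30 progenitors, 0.0031 without markers of other cells and 0.076 in the replicate block. With at least 4 Etv2 UMIs Itga2b was 0.45, Fgf8 -0.039 and T -0.18, T was -0.038 without markers of other cells, Hand1 -0.012 with 30 progenitors, and Tet3 -0.26 with 30 progenitors and -0.072 with all 8 libraries. Few progenitors in Tet-TKO library 4 (88) and depth per cell limit which low genes could be tested.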

Other observations

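Markers of other tissues were present in the progenitors at levels that differed between libraries. UMIs of 3 or more of 8 surface ectoderm and gut markers, a list that includes broadly expressed keratins, were in 25.7% of E7.5 WT host and 58.3% of E7.5 Tet-TKO progenitors, and in 7.0% to 30.7% at E8.5. Cardiomyocyte markers were in 15.8% and 18.2% of progenitors of the deep Tet-TKO libraries 3 and 4 and in 2.1% to 6.41% of the other E8.5 libraries. These shares were not thinned for depth, and among all kept cells of libraries 3 and 4 they were 14.8% and 16.2%. The summed level in progenitors was 257 and 26.6 CPM in libraries 3 and 4 and 52.0 to 223 CPM in the other E8.5 libraries. ExE ectoderm markers summed to 52.0 CPM in E7.5 WT host and to 2.0 to 9.6 CPM elsewhere.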
